A study of Mus musculus with 4 samples.

Results

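The genes described here are the cytochrome P450 (Cyp) genes of mouse liver, chosen by their symbols, which begin with Cyp and a number. Of the 7000 genes in the deposited RNA-Seq table, 37 were Cyp genes. They were grouped by family as 28 genes of families 1 to 4, which act mainly on drugs, other foreign compounds and fatty acids, 3 genes of families 7 and 39, which act in bile acid synthesis, and 6 genes of other families. No gene of family 8 or 27 had a row in the table used here.

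The libraries came from the livers of 4 male wild-type FVB/N mice. After weaning, 2 mice received a selenium-deficient torula yeast-based diet with no added selenium (0 ppm, named 0 Se), and 2 mice received the same diet with 0.1 ppm selenium added as sodium selenite (0.1 Se). Each diet was given for 6 weeks. All 4 mice therefore shared strain, sex and basal diet, and the 0.1 Se mice served as the selenium-adequate group.

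The table held the length of each mRNA and 1 mean level per gene, taken by the authors over the 4 libraries of both diets, and 0 columns for a single mouse. A level given here thus pools the diets. Columns that compared the diets were not used, no comparison between diets was made, and neither a standard deviation nor an order beyond the spread between mice can be given. The read depth of each library is unknown, and no counting interval is given. Levels are in CPM, counts scaled to a common library size, or, where genes are set against each other, in CPM per kilobase of the listed mRNA. A second scale, CPM per unique kilobase, counts only the length of sequence that is found in no other gene's mRNA. The rows stood in ascending order of the authors' p-value, and, for their comparison, the authors required over 1 CPM in 3 or more samples. A Cyp gene without a row may thus have been below that filter or, if the table is part of a longer list, beyond its end. For a single gene, these cannot be told apart here. The listed genes held 64.8% of all counted reads, and the hepatocyte genes Alb and Ttr had no row. Lack of a row was therefore not taken as a low level, and "listed" below says only that a gene had a row.

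Cytochrome P450 enzymes are heme proteins that insert 1 atom of molecular oxygen into a substrate, with electrons from NADPH that most members of the liver endoplasmic reticulum receive through P450 oxidoreductase. The heme iron is held by a cysteine in a short conserved stretch near the C-terminus. The liver uses these enzymes to oxidise drugs, steroids, fatty acids and cholesterol, and many of the genes arose by tandem duplication, so that neighbours on a chromosome can be nearly alike in sequence.

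The coding sequences of the listed genes, taken from the GENCODE annotation of build NCBIM37 (the same assembly as mm9), were searched for the 10-residue signature of the cysteine that binds heme. It was found in 34 of 37 genes, against 105 of 22594 annotated protein-coding genes, or 0.465%. The 105 genes include these 34. Because the signature is that of P450 enzymes, the difference follows from the choice of Cyp genes. The cysteine lay 54 to 71 residues before the end of the protein, with a median of 55. Its codon was TGT in 17 genes and TGC in the other 17. The signature is a pattern of residues that these 34 genes share, while the bases that encode it can differ. The 30 bases that encode the signature are shown for 9 genes of different families and subfamilies, with the cysteine codon in capitals:

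Cyp3a11: tttgggaatggacccaggaacTGCcttggc
Cyp2e1: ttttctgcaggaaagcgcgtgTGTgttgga
Cyp2f2: ttttcggctggacgtcgactgTGTctggga
Cyp2d9: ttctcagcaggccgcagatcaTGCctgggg
Cyp1a2: ttcggcttgggaaagcgccggTGCattggg
Cyp4f15: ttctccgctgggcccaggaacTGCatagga
Cyp7a1: tttggatcaggagctacaataTGTcctgga
Cyp51: tttggagctgggcgtcatcgtTGTgttgga
Cyp26a1: tttggaggaggccttcggagcTGTgtaggc

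The signature was not found in Cyp7b1, Cyp39a1 or Cyp20a1 in any of the annotated transcripts searched, 1, 3 and 2 for these genes. Cyp2d40 had the shortest annotated protein of the 37 genes, with 338 residues, and Cyp4f15 the longest, with 534 residues.

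Cyp mRNAs made up a large share of the listed liver mRNA for their number. The 37 genes were 0.529% of the listed genes, and their summed level was 24796 CPM, or 2.48% of all counted reads and 3.83% of the CPM of the listed genes. The median Cyp gene was at 91.2 CPM, against 18.7 CPM for all listed genes, and at 33.6 CPM per kilobase, against 6.19. It lay at or above 85.5% of the listed genes by CPM and 84.4% by CPM per kilobase. By CPM per kilobase, 28 of the 37 Cyp genes lay above the median of all listed genes. In classes of CPM, 3 Cyp genes reached 1000 CPM or more (8.11%, against 1.21% of all listed genes), 14 lay from 100 to 1000 CPM (37.8% against 12.1%), 12 from 10 to 100 CPM (32.4% against 52.8%), and 8 below 10 CPM (21.6% against 33.9%). These shares describe the table as listed. Since the rows stood in order of the authors' p-value and may be part of a longer list, they are not shares of the liver transcriptome.

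**Figure D1:**
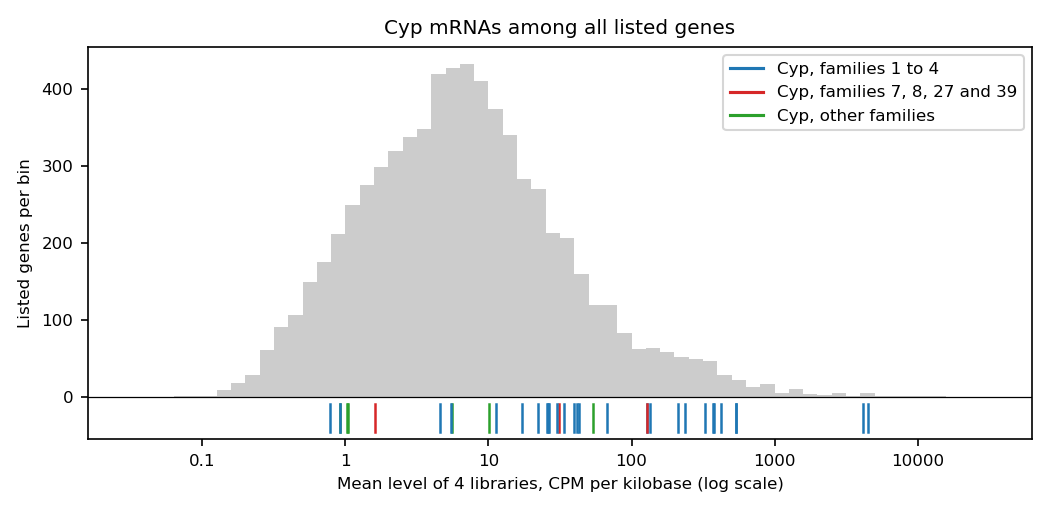
Histogram of the mean level of all 7000 listed genes (x axis, CPM per kilobase on a log scale, y axis, genes per bin), with a tick below the axis for each of the 37 Cyp genes, coloured by group of families. Most ticks lie right of the peak of the histogram, whose median is 6.19 CPM per kilobase, and the 2 ticks of Cyp3a11 and Cyp2e1 stand apart at 4524 and 4180.

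Most of the listed Cyp mRNA came from 2 genes. The Cyp total, here and below, is the sum over the 37 listed genes. The 61 annotated Cyp genes without a row are not in it, so it is not the P450 total of the liver. Cyp3a11, the main CYP3A enzyme of mouse liver and a target of the xenobiotic receptor PXR, was at 9288 CPM and 4524 CPM per kilobase. Cyp2e1, which oxidises ethanol and other small molecules, was at 7257 CPM and 4180 CPM per kilobase. Together they held 69.0% of the Cyp total per kilobase and 57.1% per unique kilobase. Per kilobase, the 5 highest genes held 80.9%, and the 10 highest held 92.9%. By CPM, Cyp3a11 and Cyp2e1 ranked 4 and 14 among all listed genes. Cyp2f2, known for the oxidation of naphthalene, ranked 3 per kilobase, at 539.5, far below both. By CPM, Cyp2j5 held that rank, and per unique kilobase Cyp3a25 held it and Cyp2f2 ranked 8. From the highest to the lowest, the 37 genes spanned a 5814-fold range of CPM per kilobase.

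**Figure D2:**
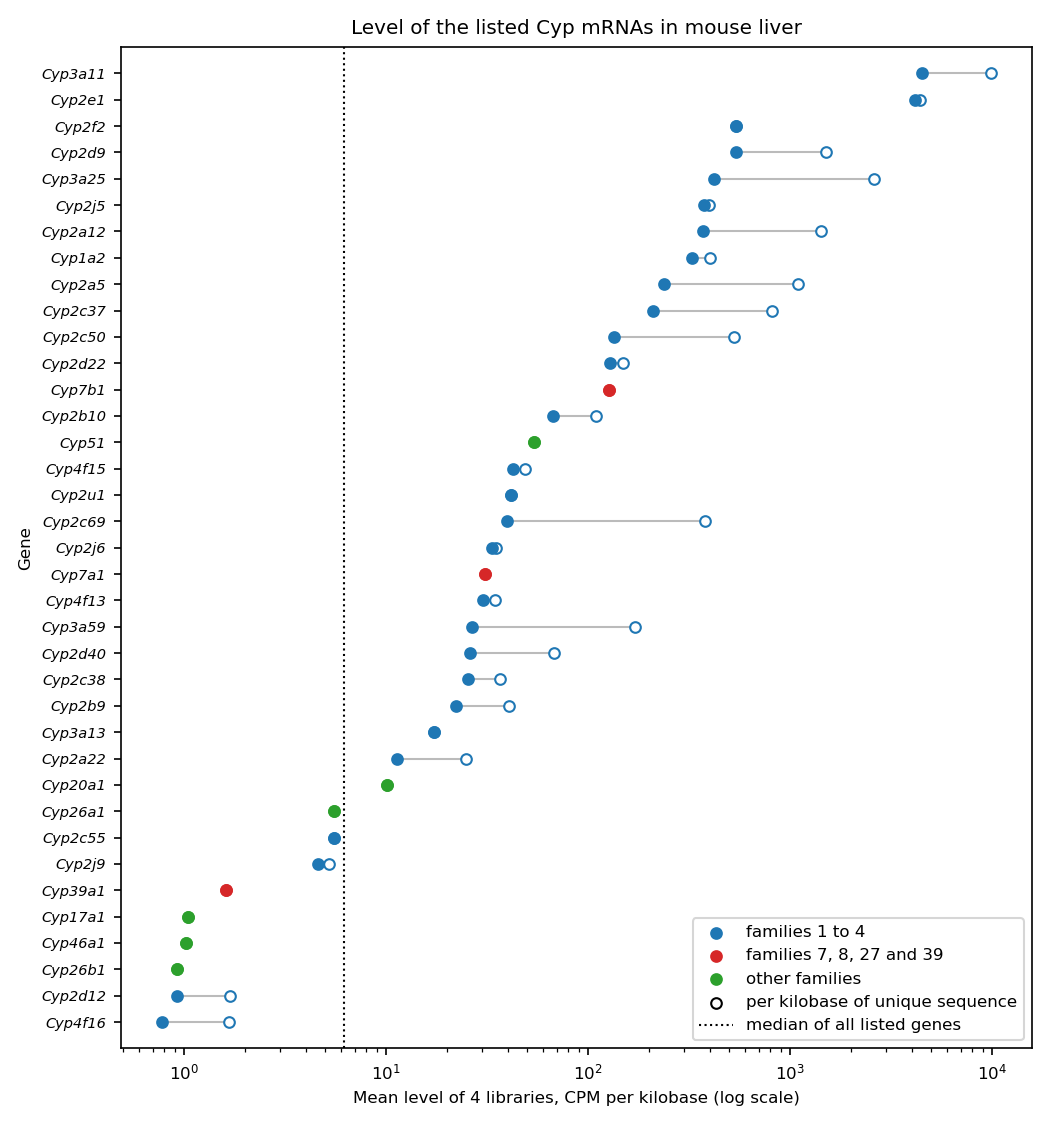
Mean level of each of the 37 Cyp mRNAs over the 4 libraries (x axis, CPM per kilobase on a log scale), ordered from highest to lowest. Filled points use the listed length, open points only the length that is unique among mouse mRNAs, and the dotted line is the median of all listed genes, 6.19. Cyp3a11 and Cyp2e1 lie highest on both scales, and the widest gap between the filled and open points is that of Cyp2c69.

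Family 1 was represented by Cyp1a2, which metabolises caffeine and aromatic amines and is a target of the aryl hydrocarbon receptor. It was at 618 CPM and 326 CPM per kilobase, the eighth of the Cyp genes. The other genes of the fixed list of aryl hydrocarbon receptor targets, Cyp1a1 and Cyp1b1, had no row.

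Family 2 was the largest, with 20 listed genes that together held 55.4% of the Cyp total per kilobase. In the Cyp2a subfamily, Cyp2a12, which hydroxylates steroids and bile acids, was at 371 CPM per kilobase, Cyp2a5, the coumarin 7-hydroxylase, at 237, and Cyp2a22 at 11.3. The highest Cyp2a gene was thus 32.9-fold above the lowest (57.4-fold per unique kilobase) and 1.56-fold above Cyp2a5. In the Cyp2b subfamily, Cyp2b10, the main target of the receptor CAR, was at 67.1 CPM per kilobase, and Cyp2b9, which is known to be higher in female mouse liver, at 22.1.

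In the Cyp2c subfamily, whose members oxidise arachidonic acid as well as drugs, Cyp2c37 was highest at 211 CPM per kilobase, followed by Cyp2c50 at 134 and Cyp2c69 at 39.5. Cyp2c38 was at 25.5 and Cyp2c55 at 5.51 CPM per kilobase, which made Cyp2c37 38.2-fold higher than Cyp2c55 (146-fold per unique kilobase). By the range from highest to lowest, the Cyp2d subfamily was the most unequal of those with several listed genes. Cyp2d9, a testosterone 16alpha-hydroxylase known to be higher in male mouse liver, was at 538 CPM per kilobase, Cyp2d22 at 129, Cyp2d40 at 26.1 and Cyp2d12 at 0.920, which is a 585-fold range (892-fold per unique kilobase). This range rests on Cyp2d12, at 1.49 CPM near the authors' filter of 1 CPM. From Cyp2d9 to Cyp2d40, the range was 20.6-fold.

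In the Cyp2j subfamily, which forms epoxides of arachidonic acid, Cyp2j5 was at 375 CPM per kilobase, Cyp2j6 at 33.6 and Cyp2j9 at 4.59. Because the Cyp2j5 mRNA is listed with 3651 bases, it ranked above Cyp2f2 by CPM, at 1371 against 982, but below it by CPM per kilobase. The nearest GENCODE transcript of Cyp2j5 has 2345 bases, so this order rests on the listed length. Of the subfamilies with 1 listed gene, Cyp2u1, a hydroxylase of long-chain fatty acids, was at 41.5 CPM per kilobase.

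Family 3 had 4 listed genes and 39.6% of the Cyp total per kilobase. Below Cyp3a11, Cyp3a25 was at 421 CPM per kilobase, Cyp3a59 at 26.6 and Cyp3a13 at 17.2. Cyp3a11 was 10.7-fold above Cyp3a25 and 263-fold above Cyp3a13 per kilobase. Per unique kilobase, it was 3.76-fold above Cyp3a25 and 572-fold above Cyp3a13. Family 4 contributed only the Cyp4f subfamily, known for the omega-hydroxylation of leukotrienes and fatty acids. Cyp4f15 was at 42.8 CPM per kilobase, Cyp4f13 at 30.3, and Cyp4f16, the lowest of all 37 Cyp genes, at 0.778. None of the 6 annotated Cyp4a genes, the fatty acid hydroxylases that PPARalpha induces, had a row.

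**Figure D3:**
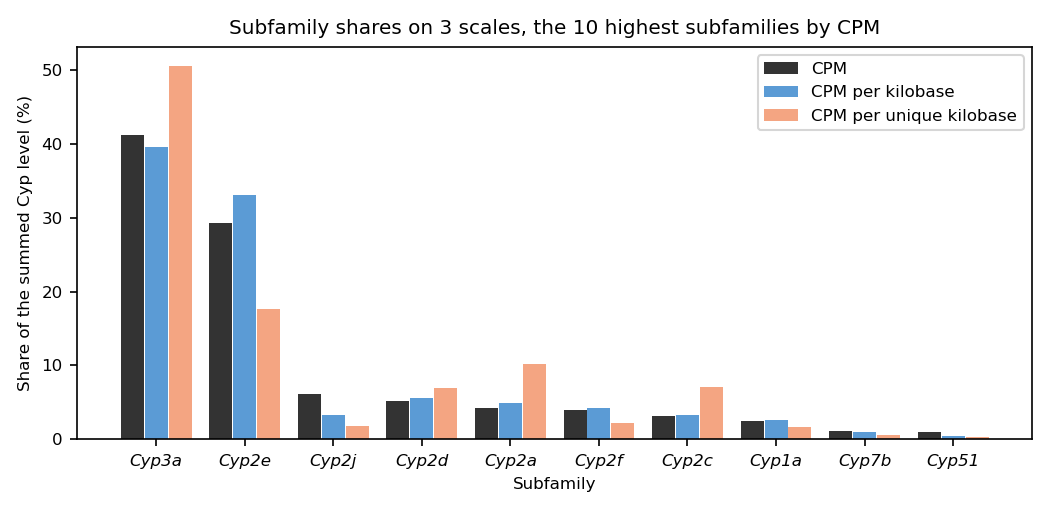
Share of the summed level of the listed Cyp genes held by each of the 10 highest subfamilies (y axis, percent) on 3 scales, CPM, CPM per kilobase of listed mRNA and CPM per kilobase of unique sequence. Cyp3a holds 41.3%, 39.6% and 50.6% on the 3 scales, and Cyp2e 29.3%, 33.1% and 17.7%.

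Of the genes of bile acid synthesis, 3 were listed, and they held 1.27% of the Cyp total per kilobase. Cyp7a1, the rate-limiting cholesterol 7alpha-hydroxylase of the classical pathway, was at 129 CPM and 30.9 CPM per kilobase. Cyp7b1, the oxysterol 7alpha-hydroxylase of the alternative pathway and a gene known to be higher in male liver, was at 276 CPM and 127 CPM per kilobase. Cyp39a1, which acts on 24-hydroxycholesterol, was at 4.93 CPM and 1.61 CPM per kilobase. Cyp8b1 and Cyp27a1, the sterol 12alpha- and 27-hydroxylases, had no row. Of 11 other genes of bile acid synthesis and transport on a fixed list, 4 were listed. Scp2, a sterol carrier protein, was at 2144 CPM per kilobase, and Hsd3b7, which follows the 7alpha-hydroxylases in the pathway, at 228. Baat, which conjugates bile acids, was at 206, and Amacr, a racemase of the side chain, at 69.3. Each of these 4 was above Cyp7a1 on this scale.

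The 6 genes of other families together held 0.575% of the Cyp total per kilobase. Cyp51, the lanosterol 14alpha-demethylase of cholesterol synthesis, was the highest at 53.9 CPM per kilobase. Cyp20a1, whose substrate is not settled, was at 10.1. The retinoic acid hydroxylases Cyp26a1 and Cyp26b1 were at 5.52 and 0.922 CPM per kilobase. Cyp17a1, the steroid 17alpha-hydroxylase of gonad and adrenal, was at 1.05, and Cyp46a1, the cholesterol 24-hydroxylase of brain, at 1.02. Of these 6 genes, Cyp51 and Cyp20a1 lay above the median of all listed genes and the other four below it. None of the 6 P450 enzymes of mitochondria (Cyp11a1, Cyp11b1, Cyp11b2, Cyp24a1, Cyp27a1 and Cyp27b1) had a row.

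Of a fixed list of 4 Cyp genes known to be higher in male mouse liver, Cyp2d9 and Cyp7b1 were listed, at 538 and 127 CPM per kilobase. Of 9 known to be higher in female liver, 3 were listed, Cyp2b9 at 22.1, Cyp39a1 at 1.61 and Cyp17a1 at 1.05 CPM per kilobase. Of all 98 annotated Cyp genes, 37 were listed. In the genes of both lists without a row, the share of unique sequence, described below, ran from 0.150% (Cyp3a41a) to 49.8% (Cyp2b13). A link of these levels to sex was not tested. Of 10 genes known to be induced through PXR or CAR, 7 were listed, from Cyp2c55 at 5.51 to Cyp3a11 at 4524, with a median of 26.6 CPM per kilobase.

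The proteins that serve the P450 enzymes were described from a list of 13 genes, of which 8 were listed. Pgrmc1, a heme-binding partner of P450 enzymes, was the highest at 951 CPM per kilobase, and its relative Pgrmc2 was at 15.3. Alas1, the rate-limiting enzyme of heme synthesis in liver, was at 243 and Fech, which inserts the iron, at 53.9. Cyb5b, an outer mitochondrial cytochrome b5, was at 114, and Fdx1, the ferredoxin that donates electrons to mitochondrial P450 enzymes, at 89.9. The heme oxygenases Hmox2 and Hmox1 were at 24.3 and 17.6 CPM per kilobase. Por, Cyb5a, Cyb5r3, Fdx1l and Fdxr had no row.

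Of 18 receptors and transcription factors known to act on Cyp genes, 14 were listed, from 4.58 to 101 CPM per kilobase, with a median of 30.2. Cebpa was the highest at 101, followed by Rxra, the partner of many of the receptors, at 66.1. The bile acid receptor Nr1h4 was at 56.3, the oxysterol receptor Nr1h3 at 52.5, Ppara at 47.9, Nr1i3 (CAR) at 47.3 and Nr1i2 (PXR) at 28.8 CPM per kilobase. Nr0b2 was at 31.6, Nr5a2 at 19.8, Cebpb at 18.9, Foxa2 at 9.40, Stat5b at 8.18, Onecut1 at 6.67 and Arnt at 4.58. Ahr, Hnf4a, Dbp and Nfe2l2 had no row.

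The labelled tissue was checked against marker genes. Of 10 hepatocyte markers 7 were listed, from G6pc at 183 to Apoa1 at 7619 CPM per kilobase, with a median of 799. Alb, Ttr and Hpd had no row, so a marker without a row does not show that its cell type was absent. Listed markers of Kupffer cells (7 of 9), sinusoidal endothelium (5 of 6) and stellate cells (7 of 7) had medians of 19.1, 15.1 and 5.74 CPM per kilobase. Of cholangiocyte markers 1 of 5 was listed, Spp1 at 16.5 CPM per kilobase, and of red cell markers 1 of 5, Alas2 at 19.1. Of pancreas and gut markers 2 of 6 were listed, Fabp2 at 160 and Cela1 at 28.0 CPM per kilobase, and of lymphocyte markers 0 of 6. How the share of each cell type bears on the Cyp levels was not tested, and fewer cells of a type cannot be told apart from less RNA per cell.

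The annotation of NCBIM37 held 98 protein-coding Cyp genes, 79 in families 1 to 4, 6 in families 7, 8, 27 and 39, and 13 in other families. The 37 listed genes lay on 11 chromosomes and had 5 to 15 exons. With a gap of over 1000000 bases as the border, 10 clusters of at least 2 Cyp genes were formed, and 26 of the 37 listed genes lay in them. The Cyp3a cluster (chr5:146106148-146924861) held 8 genes, of which Cyp3a11, Cyp3a25 and Cyp3a59 were listed, and their levels spanned 170-fold per kilobase and 57.6-fold per unique kilobase. Cyp3a11 lies there at chr5:146666002-146691540 on the minus strand, with 13 exons. Cyp3a13 lies outside this cluster, at chr5:138334160-138362847. The Cyp2d cluster (chr15:82200958-82624675) held 9 genes, 4 of them listed, with the 585-fold range given above, and the Cyp2j cluster (chr4:95694225-96330845) held 8 genes, 3 of them listed, with an 81.8-fold range.

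The cluster at chr7:26587494-27943687 held 13 genes of family 2, of which Cyp2b10, Cyp2b9, Cyp2a5, Cyp2a22, Cyp2a12 and Cyp2f2 were listed, over a 47.8-fold range. Cyp2e1 lies on the same chromosome but far from it, at chr7:147949638-147960874 on the plus strand, with 9 exons. The Cyp2c cluster (chr19:39081509-40261823) held 14 genes, 5 of them listed, with the 38.2-fold range given above, and the Cyp4f cluster (chr17:32605404-33084347) held 7 genes, 3 of them listed, with a 55.0-fold range (29.1-fold per unique kilobase). Levels within a cluster could also be close, as for Cyp4f15 and Cyp4f13, 1.41-fold apart. In the cluster at chr4:114778928-115320322, which holds the Cyp4a genes, 0 of 8 genes were listed.

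The authors counted only reads of 50 bases that aligned to a single mRNA with up to 2 mismatches, so the near identity of these neighbours bears on the levels. Within subfamilies, 162 pairs of proteins with at least 1 listed gene were aligned, and 11 listed genes had a partner with at least 90% identical residues. The most alike pair was Cyp2a5 with Cyp2a4, which had no row, at 97.6%. Cyp2c69 was 95.9% identical to Cyp2c67 and 95.1% to Cyp2c40, which both had no row. Of pairs with both genes listed, Cyp3a25 and Cyp3a59 were 95.0% identical, Cyp2c37 and Cyp2c50 94.5%, and Cyp2a12 and Cyp2a22 94.3%. Cyp3a11 was 91.7% identical to Cyp3a41a and to Cyp3a41b.

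For the 3 pairs with both genes listed, the stretch of 50 coding bases with the most differences is shown, with the differing bases in capitals. A read from such a stretch could tell the genes apart. The stretch shown is not the only such place, because other windows of each pair also differed by more than 2 bases. The stretch is at coding bases 300 to 349 for Cyp3a25 and Cyp3a59 and holds 7 differences, at 613 to 662 for Cyp2c37 and Cyp2c50, also with 7, and at 1287 to 1336 for Cyp2a12 and Cyp2a22, with 6:

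Cyp3a25: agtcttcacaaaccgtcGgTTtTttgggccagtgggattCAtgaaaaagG
Cyp3a59: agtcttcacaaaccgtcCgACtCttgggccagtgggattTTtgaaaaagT
Cyp2c37: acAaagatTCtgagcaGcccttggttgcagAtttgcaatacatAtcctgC
Cyp2c50: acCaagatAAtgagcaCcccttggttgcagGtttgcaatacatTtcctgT
Cyp2a12: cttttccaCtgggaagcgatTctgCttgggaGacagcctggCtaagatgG
Cyp2a22: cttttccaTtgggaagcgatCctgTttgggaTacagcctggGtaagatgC

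Of all 50-base windows of the aligned coding sequences, 88.1% differed by at most 2 bases between Cyp3a25 and Cyp3a59, 78.5% between Cyp2a12 and Cyp2a22, and 67.8% between Cyp2c37 and Cyp2c50. The Cyp2a12 and Cyp2a22 stretch overlaps the codons of the heme signature.

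To see how much of each mRNA could give a counted read, every 50-base window of 1 GENCODE transcript per gene was aligned to the transcripts of 22574 protein-coding genes. The unique share is the share of windows that matched no other gene within 2 mismatches. Its median was 87.4% over the 37 Cyp genes and 100% over 6733 other listed genes. It was under 90% for 21 Cyp genes (56.8%, against 9.36% of the others) and under 50% for 12 (32.4%, against 3.07%). All 21 genes were of families 1 to 4. The 9 genes of families 7, 39 and the others had unique shares of at least 99.2%. The 61 annotated Cyp genes without a row had a median of 81.7%, and 21 of them were under 50%. For Cyp3a41a, it was 0.150%.

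The unique share was 10.4% for Cyp2c69, whose windows were shared mostly with Cyp2c40, 15.6% for Cyp3a59 and 16.1% for Cyp3a25, each of which had most of its shared windows in the other (82.3% and 82.2% of all windows). It was 21.7% for Cyp2a5, 25.5% for Cyp2c50, 25.95% for Cyp2a12, 25.97% for Cyp2c37, and 35.6% for Cyp2d9. Of the 2 highest genes, Cyp3a11 had a unique share of 45.9%, with 44.2% of its windows shared with Cyp3a41a, and Cyp2e1 one of 94.5%. Cyp2f2 and Cyp7b1 were unique throughout. Cyp2d40 and Cyp4f16 shared the most windows with genes that have no Cyp symbol, Gm5062 (52.25%) and Gm9705 (47.52%). Whether both were among the authors' mRNAs was not checked. Where only exact matches counted as shared, the median rose to 97.4%, 14 Cyp genes were under 90% and 1, Cyp2c69 at 48.6%, was under 50%.

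**Figure D4:**
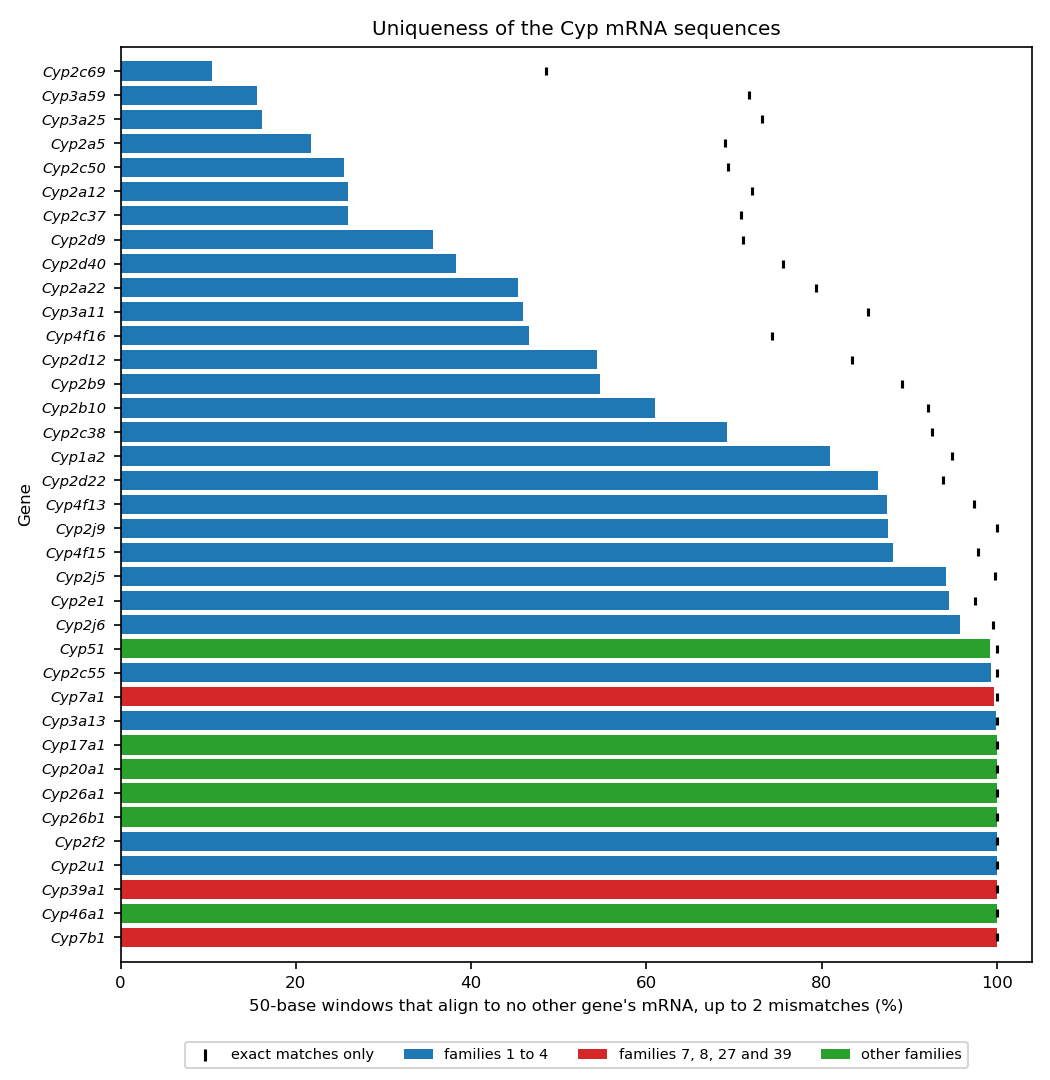
Percentage of 50-base windows of each Cyp mRNA that align to no other gene's mRNA with up to 2 mismatches (bars, x axis), with a vertical mark for the value when only exact matches count. Genes are ordered from the lowest, Cyp2c69 at 10.4%, to those at 100%, and every gene of the bile acid and other families stands at 99.2% or more.

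When CPM was divided by the unique length in place of the listed length, the summed Cyp level was 1.98-fold higher. Cyp3a11 was at 9850 CPM per unique kilobase and Cyp2e1 at 4424. Cyp3a25 moved above Cyp2f2 and Cyp2d9 to rank 3, at 2618, which was 6.22-fold its plain value, and Cyp2c69 moved from 39.5 to 380, 9.62-fold its plain value. Cyp2d9 was at 1510, Cyp2a12 at 1428, Cyp2a5 at 1094 and Cyp2c37 at 811, all above Cyp2f2, which stayed at 539.5. With exact matches only, Cyp3a11 was at 5303, Cyp2e1 at 4289 and Cyp3a25 at 575 CPM per unique kilobase. With up to 2 mismatches, Cyp3a11 was 2.18-fold its plain value, Cyp2d40 2.61-fold, Cyp2a22 2.21-fold and Cyp4f16 2.15-fold. The levels of these 4 genes and of Cyp3a25, Cyp2c69, Cyp3a59, Cyp2a5, Cyp2a12, Cyp2c37, Cyp2c50 and Cyp2d9 relative to genes of unique sequence therefore depend on how reads of shared sequence were set aside, while those of Cyp2e1, Cyp2f2, Cyp7b1 and Cyp7a1 changed by less than 1.1-fold on these scales.

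Promoter sequences of RefSeq (build GRCm38.p6, 250 bases before to 50 bases after the start) were matched by symbol for 30 of the 37 genes, with 31 windows in all. The letters TATAAA, on either strand, were in 45.2% of these windows and in 13.6% of 32820 windows of other genes. They were in the windows of Cyp3a11, Cyp2e1, Cyp2d9, Cyp2j5, Cyp2a12, Cyp1a2 and Cyp2a5, among others. CCAAT was in 61.3% against 37.4%, and AGGTCA, a motif bound by nuclear receptors, in 29.0% against 16.2%, with Cyp3a11, Cyp3a25, Cyp3a59 and Cyp2f2 among the genes. CAAAGTCCA, a form of the HNF4 site, was in the windows of Cyp3a11 and Cyp2c69, or 6.45% against 0.469%. GCGTG, the core bound by the aryl hydrocarbon receptor, was in 19.4% against 32.4%, and TTGCGCAA in 0 of the 31 windows against 0.183%. These letters were counted only in this window, and a match was not tested as a binding site. The windows of other genes were not limited to listed genes. The Cyp windows include near copies, such as Cyp3a25 and Cyp3a59, and the differences in share were not tested.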

How the data were processed

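Liver RNA of 2 mice fed 0 Se and 2 fed 0.1 Se was depleted of ribosomal RNA, primed with random hexamers and read as single ends of 50 bases on a HiSeq 2000. Reads were mapped by the authors with Bowtie on RefSeq mRNAs of mm9, using the longest isoform per gene, and they kept unique alignments with up to 2 mismatches. The log2 mean CPM over the 4 libraries was made by the authors with edgeR and is used as deposited, as is the mRNA length in bases. The deposited columns of log2 fold change between diets, p-value and FDR hold the authors' comparison and were not used, except that the row order was seen to follow the p-value (0 adjacent rows out of order). The authors used normalized CPM. The method of normalization and the tool versions are not stated in the sources used here. There were 0 columns of single mice, so no test, filter on counts or replicate error was possible, and depth per library is unknown.

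Mean CPM was 2 to the power of the deposited value, and CPM per kilobase divides it by the listed length. Unique shares were found with bwa 0.7.19 (50-base windows, up to 2 mismatches, every window for Cyp genes and steps of 10 bases for other genes), tested on simulated data. GENCODE transcripts of NCBIM37 stand in for the RefSeq mRNAs, 1 per gene and nearest in length, within 10% of the listed length for 33 of 37 genes. The exceptions were Cyp3a11 (2344 bases against 2053 listed), Cyp2a5 (2013 against 1715), Cyp2j5 (2345 against 3651) and Cyp20a1 (976 against 1501). For these, the unique share of the GENCODE transcript was applied to a listed length that differs. The genome is of C57BL/6J mice, not FVB/N. Coding sequences were translated and aligned with Biopython 1.88, using the longest coding sequence of each gene for identity and every annotated transcript for the heme signature. Python 3.11.15, pandas 2.3.3 and matplotlib 3.10.9 were used. Named genes were all 37 members and fixed lists of partner, regulator, bile acid and cell marker genes. The members and lists were chosen with earlier results of these data known. Alternatives were another length scale, a minimum of 2 CPM, unique length, and leaving out near copies. Of factors known to act on Cyp genes, 1 was left out of the list and is not reported here.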

Additional observations from a re-analysis of the deposited data

How the results depend on the processing

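With no replicates in the table, each alternative gives a value and no test. Without symbols that lack a letter after the family number (Cyp51), 36 Cyp genes were counted. The Cyp share of the listed level was 3.83% by CPM, 3.67% by CPM per kilobase, and 1.97% of CPM without the 11 genes at least 90% identical to another Cyp protein. This last alternative was chosen after seeing the data, with translated GENCODE sequences, in place of a planned one on RefSeq proteins that was not run. The median Cyp gene was at 91.2 CPM, 33.6 CPM per kilobase, 48.5 CPM per unique kilobase, and 108.7 CPM among the 34 genes of at least 2 CPM. It lay at or above 85.5% of listed genes by CPM, 84.4% per kilobase and 87.0% with that minimum.

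By CPM, per kilobase and per unique kilobase (the last chosen after seeing the data), the share of the Cyp total was 41.3%, 39.6% and 50.6% for Cyp3a, 29.3%, 33.1% and 17.7% for Cyp2e, 6.05%, 3.28% and 1.75% for Cyp2j, 5.15%, 5.51% and 6.92% for Cyp2d, 4.23%, 4.91% and 10.2% for Cyp2a, and 3.19%, 3.29% and 7.04% for Cyp2c. The 10 highest genes per kilobase were the same 10 by CPM and with exact matches, and 9 of them remained per unique kilobase, where Cyp2c50 replaced Cyp2j5. The GENCODE transcript of Cyp2j5 differs from the listed length by over 10%, so its place on that scale is less sure. The level of 27 of 37 genes moved per unique kilobase, and of 23 with exact matches. Unique shares assume even coverage and reads without strain differences. Depth per mouse is unknown, so the precision of the low genes, such as Cyp4f16 at 1.69 CPM and Cyp2d12 at 1.49 CPM, cannot be given.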
